A study of Mus musculus with 8 samples.

Results

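Mitosis and chromosome segregation genes were examined in organoids of embryonic mouse stomach epithelium, with and without an active form of YAP. The group comprises 56 genes of the G2 phase and mitosis, taken by symbol from the deposited count table, with rows sharing a symbol summed. All 56 were found among the 53170 named genes, and all 56 were among the 14058 genes expressed highly enough to be tested. They were sorted by role into 9 genes of mitotic entry, 7 of chromosome structure, 13 of the spindle, 6 of centromere and kinetochore, 4 of the chromosomal passenger complex, 9 of the spindle checkpoint and anaphase, and 8 of cytokinesis.

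The series used here holds 8 bulk RNA-seq libraries of organoids from the hindstomach (glandular stomach) epithelium of mouse embryos at embryonic day 18.5, grown for 5 days in growth medium. The 4 control libraries have the genotype Shh-Cre, and the 4 YAP5SA libraries have the genotype Shh-Cre;YAP5SA, so both groups carry the Cre recombinase under control of Shh, which is expressed in the epithelium of the developing gut. YAP5SA is a form of the transcriptional coactivator YAP that lacks the serines through which the Hippo kinases restrain it, and the labels give the controls no such transgene. The labels do not say whether libraries of a group came from separate embryos or cultures. A p-value here reflects the spread among the 4 libraries of a group, part or all of which may be technical. In the edgeR test, the spread of each gene is also adjusted towards that of the other tested genes.

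Cells enter mitosis when CDK1, bound to a B-type cyclin, is switched on by CDC25 phosphatases. Condensins then compact the chromosomes, kinesins and spindle kinases build the spindle, and kinetochores attach each chromatid to microtubules while the checkpoint holds back the anaphase-promoting complex. After the chromatids part, the central spindle and the contractile ring divide the cell. Transcripts of these genes accumulate in G2 and mitosis through the MuvB complex, the MYB-related and FOXM1 factors that bind it, and NF-Y, and they mark the dividing progenitors of the stomach gland. In bulk RNA, more dividing cells and more of these transcripts in each dividing cell cannot be told apart.

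The promoters of the group were examined first, since their sequence played no part in choosing the genes. The RefSeq promoter table (GRCm38.p6) held 48 of the 56 genes and 27025 genes in all, each with 250 bases before and 50 bases after the start site. The last 150 bases before the start are shown for Cdc25b and Ccnb2, which had the highest fold changes among genes in that table, for Spc25, one of the 2 with the lowest, and for Top2a, chosen after its motifs were seen because it holds both kinds. Each runs 5′ to 3′ on the strand of the gene, and capitals mark the CCAAT box (CCAAT, or ATTGG on the other strand) and the cell cycle homology region, or CHR (TTTGAA or TTTAAA, or TTCAAA for the first on the other strand).
Cdc25b: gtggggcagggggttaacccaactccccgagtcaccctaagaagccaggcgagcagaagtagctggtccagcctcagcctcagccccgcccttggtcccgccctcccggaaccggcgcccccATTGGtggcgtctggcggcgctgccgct
Ccnb2: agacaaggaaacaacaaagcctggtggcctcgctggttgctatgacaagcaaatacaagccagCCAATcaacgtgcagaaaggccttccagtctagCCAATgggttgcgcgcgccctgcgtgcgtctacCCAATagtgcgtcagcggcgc
Top2a: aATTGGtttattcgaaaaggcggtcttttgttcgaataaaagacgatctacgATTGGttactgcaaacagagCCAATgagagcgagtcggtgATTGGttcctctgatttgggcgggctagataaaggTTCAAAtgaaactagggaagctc
Spc25: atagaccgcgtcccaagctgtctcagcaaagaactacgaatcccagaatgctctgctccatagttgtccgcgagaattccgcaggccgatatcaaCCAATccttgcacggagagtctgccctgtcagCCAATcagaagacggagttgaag
These stretches lie at chr2:131186798-131186947 (plus strand), chr9:70421555-70421704 (minus strand), chr11:99024190-99024339 (minus strand) and chr2:69206214-69206363 (minus strand). Cdc25b has 1 CCAAT box, whose first base is 28 bases before the start. Ccnb2 has 3, at 87, 54 and 21 bases, spaced evenly, and Spc25 has 2, at 55 and 23 bases. Both Ccnb2 and Spc25 also hold a TTTGAA in their promoters, outside the stretches shown. Top2a has 4 CCAAT boxes, at 149, 98, 78 and 58 bases, and a CHR 23 bases before the start. The same stretches of Cenpa and Bub3 overlap annotated exons and are given by count only, each with 2 CCAAT boxes and 1 CHR.

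Both motifs were common in the group. A CCAAT box stood in 36 of the 48 promoters (75%), against 37.9% of all 27025 promoters, and at least 2 CCAAT boxes stood in 23 (47.9%), against 12.2%. The CHR form TTTGAA stood in 34 (70.8%), against 18.1%, and the form TTTAAA in 11 (22.9%), against 13.2%. A CCAAT box together with either form stood in 32 promoters (66.7%), against 10.9%. The position of the TTTGAA matches differed from that of the CCAAT boxes. In the 50 bases after the start, TTTGAA was found in 18 of 48 promoters (37.5%), against 2.18% of all promoters, while before the start it was found in 37.5%, against 16.3%. A CCAAT box together with either CHR before the start stood in 43.8%, against 9.0%. CCAAT boxes stood before the start in 75%, against 34.5%. The 32 genes with both had a median log2 fold change of 0.47, and the other 16 had a median of 0.50. Some of these 16, such as Cdc25b and Anln, hold a CCAAT box or a CHR alone, and the difference was not tested. The 27025 promoters include those of genes not tested here, whereas all 48 belong to tested genes. Shares among tested genes alone were not computed. A match of these letters is a description of the sequence and not a measured binding site.

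Libraries had between 13672268 and 19710648 counts, and between 19831 and 20555 named genes were detected. The label YAP5SA cannot be checked from Yap1, the endogenous gene, which lay between 152 and 169 CPM in controls and between 150 and 157 CPM in YAP5SA (edgeR adjusted p = 0.339). CPM here are counts scaled by TMM-adjusted library size. Xist lay between 676 and 1049 CPM in all controls and between 0.41 and 2.76 CPM in all YAP5SA libraries, and the Y-linked Eif2s3y between 93.3 and 111 CPM in YAP5SA, with 5 counts over all controls. Sex and genotype therefore cannot be told apart in any value below. Markers of gastric epithelium summed to between 9500 and 10200 CPM in controls and between 6219 and 6476 CPM in YAP5SA. Of these 11 genes, 8 were called lower and 2 higher, against 25.5% and 23.6% of all tested genes. The lowest fold changes were those of Cldn18 (mean 1353 against 2.05 CPM) and Pgc (586 against 1.08 CPM). The 2 called higher were Epcam (486 against 640 CPM) and Sox2 (30.6 against 47.6 CPM). Marker sums of other cell types were small, at most 4.36 CPM for 10 mesenchymal, 2.82 CPM for 5 neural and 0.842 CPM for 4 erythroid genes in any library. The sum of 6 endothelial genes was 6.57 to 13.8 CPM in controls and 1.29 to 2.83 in YAP5SA, and that of 7 immune genes 19.6 to 39.2 against 9.72 to 10.4 CPM. Each sum rested on 1 gene, Tek (mean 8.88 against 0.317 CPM) and Cd68 (28.6 against 7.88 CPM), while the other tested marker of each list was called higher in YAP5SA, Tie1 (0.0429 against 1.65 CPM) and Csf1r (0.191 against 1.49 CPM). The mesenchymal marker Lum was at 0 in every library. The part of these differences in the values below was not tested.

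The mitosis genes were higher in YAP5SA organoids as a group. Of the 56, 53 were higher and 0 lower by edgeR's quasi-likelihood test, with Benjamini-Hochberg adjustment over all 14058 tested genes and a threshold of 0.05. Over all tested genes 49.1% were called, 23.6% higher and 25.5% lower. By unadjusted p under 0.05, 54 were higher and 0 lower, and the DESeq2 Wald test called 53 higher and 0 lower. The differences were modest in size. The median log2 fold change of the group was 0.49, a 1.41-fold rise, with the middle 50% of genes between 0.38 and 0.60 and all 56 between 0.03 and 1.21, while the median over all tested genes was 0.00. At least 1.5-fold higher were 15 genes of the group, against 9.7% of all tested genes, and at least 2-fold higher was 1, Cdc25b, against 5.26%. In 52 of the 56 the 4 YAP5SA libraries all lay above the 4 controls, against 21.8% of all tested genes. The exceptions were Melk, Kif18a, Spc25 and Bub3.

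**Figure D1:**
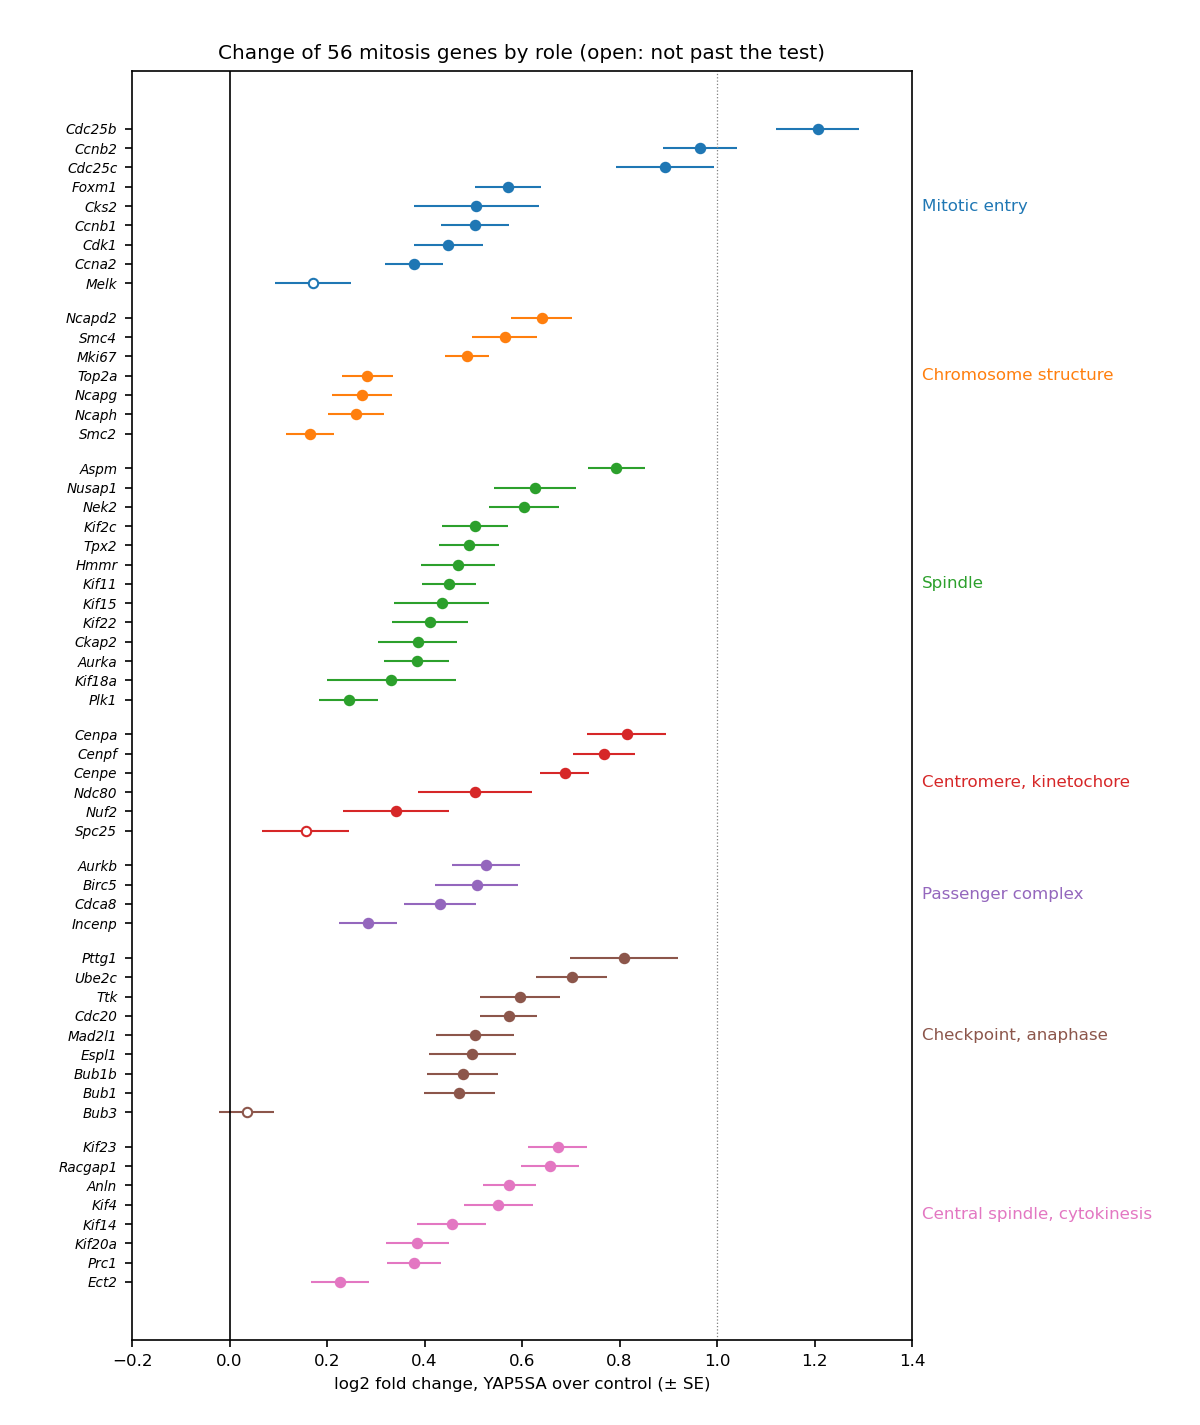
Log2 fold change of each mitosis gene, YAP5SA over control, with bars of 1 SE, grouped by role; open points did not pass the test and the dotted line is a 2-fold change. All 56 estimates lie above 0, from 0.03 for Bub3 to 1.21 for Cdc25b, whereas without control 4 the estimate for Bub3 is −0.00 and 55 are positive.

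Counts on the 56 genes took 0.504%, 0.502%, 0.520% and 0.436% of all counts in controls 1 to 4 and 0.712%, 0.694%, 0.691% and 0.681% in YAP5SA 1 to 4. The groups did not overlap, and the mean share was 0.490% ± 0.037 (SD, n = 4) in controls and 0.695% ± 0.013 (SD, n = 4) in YAP5SA. Control 4 was the lowest library. It was the lowest of the controls in 48 of the 56 genes, and its median deviation from the other controls was −0.23 on the log2 scale over these genes and 0.01 over all tested genes. In 50 DNA replication genes it was −0.17 and in 127 other mitosis genes −0.13. Control 4 also had the lowest total, 13672268 counts, and the lowest share of mitochondrial counts, 4.38%, and their part in its low values was not tested. Without control 4, the count was 52 higher and 0 lower, the median log2 fold change was 0.42, and Kif18a lost its call.

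**Figure D2:**
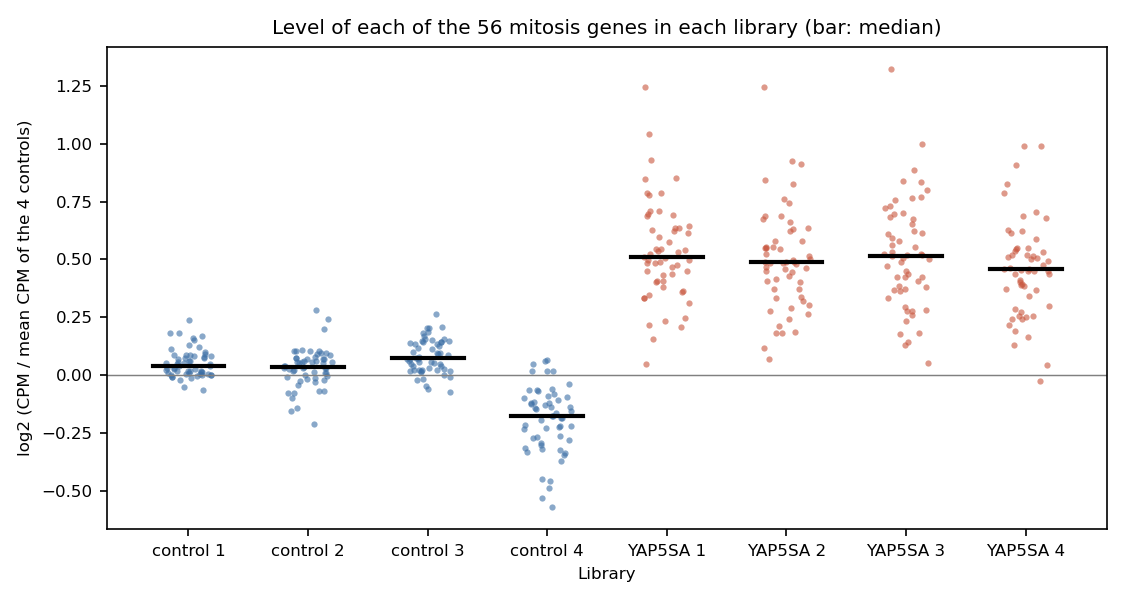
Level of each of the 56 mitosis genes in each library, as log2 of its CPM over the mean CPM of the 4 controls, with 1 point per gene and a bar at the median of the library. Control 4 sits below the other controls, and the medians of all 4 YAP5SA libraries sit above every control median.

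Mitotic entry held the genes with the highest fold changes. Of 9 genes 8 were higher, with a median log2 fold change of 0.51. Cdc25b, the phosphatase that starts CDK1 activation at the centrosome, was at 34.0, 27.1, 30.4 and 28.3 CPM in controls 1 to 4 and at 71.0, 71.2, 75.1 and 59.5 CPM in YAP5SA 1 to 4. Every YAP5SA library was above every control, and the log2 fold change was 1.21 ± 0.08 (SE), or 2.31-fold with a 95% interval of 2.04 to 2.61 (edgeR adjusted p = 1.39e-09). Ccnb2, a B-type cyclin of the Golgi, was at 62.8, 63.8, 66.8 and 49.7 CPM in controls and at 125, 116, 121 and 114 CPM in YAP5SA. The lowest YAP5SA value was far above the highest control, and the log2 fold change was 0.97 ± 0.08 (SE; edgeR adjusted p = 7.24e-09). Its relative Ccnb1, the main partner of CDK1, was at 97.4, 104, 107 and 81.2 CPM in controls and at 142, 138, 140.2 and 134 CPM in YAP5SA. These groups did not overlap either, with a smaller log2 fold change of 0.50 ± 0.07 (SE; edgeR adjusted p = 1.05e-05).

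Of the other genes of mitotic entry, Cdc25c changed most. This second CDC25 phosphatase of the role had a log2 fold change of 0.89 ± 0.10 (SE) at a low level, from 11.7 to 16.4 CPM in controls and from 24.8 to 29.0 CPM in YAP5SA. Foxm1, the transcription factor that drives many late cell cycle genes, had a log2 fold change of 0.57, Cks2, a small subunit of CDK complexes, 0.51, Cdk1 itself 0.45 and Ccna2, the A-type cyclin of S phase and G2, 0.38, all called. Melk, a kinase that peaks in mitosis, was the 1 gene of this role that did not pass. It was at 53.1, 56.2, 59.5 and 45.6 CPM in controls and at 63.0, 61.1, 63.0 and 55.2 CPM in YAP5SA, and the groups overlapped through YAP5SA 4. Its log2 fold change was 0.17 ± 0.08 (SE), a ratio of 1.13 with a 95% interval of 1.01 to 1.26 (edgeR adjusted p = 0.0776), and without control 4 the log2 fold change was 0.11.

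Chromosome structure genes had the smallest median rise of the 7 roles, 0.28 on the log2 scale, although all 7 were higher. Mki67, the proliferation antigen that coats mitotic chromosomes, was at 468, 447, 461 and 467 CPM in controls and at 651, 642, 659.6 and 629.7 CPM in YAP5SA. Its controls were tightly grouped, and the log2 fold change was 0.49 ± 0.05 (SE; edgeR adjusted p = 6.5e-08), near the median of the whole group. Top2a, the topoisomerase that untangles sister chromatids, was at 499, 500.0, 525 and 448 CPM in controls and at 611, 597, 604 and 588 CPM in YAP5SA. The groups did not overlap, but the log2 fold change was lower, 0.28 ± 0.05 (SE; edgeR adjusted p = 0.000212).

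The 5 remaining genes of this role encode the condensin I complex, and their fold changes spread widely. Ncapd2, a HEAT-repeat subunit, was at 81.1, 70.8, 82.3 and 81.8 CPM in controls and at 121, 122, 133 and 116 CPM in YAP5SA, a log2 fold change of 0.64 ± 0.06 (SE; edgeR adjusted p = 1.28e-07). Smc4, one of the paired ATPase arms, was at 213, 227, 241 and 185 CPM in controls and at 336, 311, 309 and 326 CPM in YAP5SA, 0.56 ± 0.07 (SE; edgeR adjusted p = 1.52e-06). For both genes the groups were well apart. Smc2, the other arm, was at 149, 141, 143 and 136 CPM in controls and at 164, 155, 157 and 163 CPM in YAP5SA. Its groups did not overlap but lay close, with a log2 fold change of 0.17 ± 0.05 (SE; edgeR adjusted p = 0.0101). Ncapg, the other HEAT-repeat subunit, and Ncaph, the kleisin that closes the ring, were also called, at 0.27 and 0.26.

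All 13 spindle genes were higher, with a median log2 fold change of 0.45. Aspm, which focuses spindle poles, was at 54.6, 49.3, 50 and 54.4 CPM in controls and at 93.6, 88.4, 88.8 and 89.9 CPM in YAP5SA. Both groups were narrow, and the log2 fold change was 0.79 ± 0.06 (SE; edgeR adjusted p = 2.68e-09). Nusap1, which bundles microtubules near chromosomes, was at 67.0, 65.0, 65.5 and 49.2 CPM in controls and at 95, 97.7, 102 and 87.6 CPM in YAP5SA. Control 4 stood apart from the other controls here, and the log2 fold change was 0.63 ± 0.08 (SE; edgeR adjusted p = 8.57e-06). Plk1, the kinase of mitotic entry and spindle assembly, had the smallest estimate of the role, 0.24 ± 0.06 (SE; edgeR adjusted p = 0.00266). It was at 61.3, 56.4, 55.8 and 52.9 CPM in controls and at 65.8, 65.6, 68.5 and 68.4 CPM in YAP5SA, without overlap.

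The other spindle kinases were Nek2, which separates centrosomes, at a log2 fold change of 0.60, and Aurka, which matures them, at 0.38. Tpx2, the activator of Aurora A, was at 0.49, Hmmr, a spindle-associated protein, at 0.47, and Ckap2, another microtubule binder, at 0.39. Among the motors, Kif11, which pushes the poles apart, was at 0.45, Kif15, which works beside it, at 0.44, the microtubule depolymerase Kif2c at 0.50 and the chromosome-arm motor Kif22 at 0.41. Kif18a, which limits the movement of chromosomes at the plate, was the weakest call of the group. It was at 20.1, 23.0, 21.4 and 13.1 CPM in controls and at 25.6, 22.9, 23.2 and 26.7 CPM in YAP5SA, so that YAP5SA 2 fell within the range of the controls. The log2 fold change was 0.33 ± 0.13 (SE; edgeR adjusted p = 0.0489), and without control 4 it was 0.20 (edgeR adjusted p = 0.0693). Leaving out control 1 or any 1 of the 4 YAP5SA libraries also ended this call.

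Centromere and kinetochore genes had the highest median of the 7 roles, 0.60, with 5 of 6 higher. Cenpa, the histone variant that marks centromeres, was at 37.4, 37.3, 43.1 and 32.0 CPM in controls and at 67.6, 67.2, 69.3 and 60.4 CPM in YAP5SA. The groups were far apart, and the log2 fold change was 0.81 ± 0.08 (SE; edgeR adjusted p = 1.48e-07). Cenpf, a large protein of the outer kinetochore, was at 132, 109, 118 and 107 CPM in controls and at 201, 195, 208 and 189.8 CPM in YAP5SA, 0.77 ± 0.06 (SE; edgeR adjusted p = 1.32e-08). Cenpe, the kinetochore motor that moves chromosomes to the plate, followed at 0.69. These 3 genes all had at least 1.5-fold changes.

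Genes of 3 subunits of the NDC80 complex, which grips the microtubule end, had smaller estimates. A further subunit, Spc24, is among the other mitosis genes and was named after its value was seen. It was called higher, at 0.65 ± 0.11 (SE). Ndc80 was at a log2 fold change of 0.50 ± 0.12 (SE) and Nuf2 at 0.34 ± 0.11 (SE), both called, and Nuf2 lost its call without YAP5SA 1 (0.29, edgeR adjusted p = 0.0615). Spc25 did not pass. It was at 46.5, 44.7, 44.0 and 32.4 CPM in controls and at 46.7, 47.5, 47.4 and 45.8 CPM in YAP5SA. Controls 1 to 3 were just below or within the YAP5SA range, and control 4 was well below. The log2 fold change was 0.16 ± 0.09 (SE), a ratio of 1.11 with a 95% interval of 0.978 to 1.27 (edgeR adjusted p = 0.162), and without control 4 it was 0.06. The upstream stretch of Spc25 shown above holds 2 CCAAT boxes and no CHR, but its full promoter also holds a TTTGAA. That of Cenpa holds 2 CCAAT boxes and 1 CHR, and so does that of Bub3, which did not pass either.

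The chromosomal passenger complex corrects faulty attachments and later directs cleavage, and all 4 of its genes were higher, with a median of 0.47. Aurkb, its kinase, was at 39.2, 39.6, 40.2 and 37.6 CPM in controls and at 52.8, 60.9, 60.2 and 51.8 CPM in YAP5SA, a log2 fold change of 0.53 ± 0.07 (SE; edgeR adjusted p = 5.65e-06). Birc5 (survivin), which brings the complex to the centromere, was at 53.4, 52.6, 59.3 and 40.7 CPM in controls and at 73.1, 72.3, 74.5 and 73.8 CPM in YAP5SA, 0.51 ± 0.08 (SE; edgeR adjusted p = 8.46e-05). The controls of Birc5 were spread by control 4, while its YAP5SA values were within a narrow band. Incenp, the scaffold, had the smallest estimate, 0.28 ± 0.06 (SE; edgeR adjusted p = 0.000738), from 65.0, 66.0, 66.4 and 59.6 CPM to 76.2, 78.6, 83.9 and 74.6 CPM. Its groups did not overlap. Cdca8 (borealin), the fourth subunit, was at 0.43.

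Among the 9 checkpoint and anaphase genes, 8 were higher, with a median of 0.50. Pttg1 (securin), which holds separase inactive until anaphase, was at 28.0, 23.9, 26.1 and 17.0 CPM in controls and at 40.7, 42.1, 42.4 and 42.2 CPM in YAP5SA. The controls were spread and the YAP5SA libraries close together, and the log2 fold change was 0.81 ± 0.11 (SE; edgeR adjusted p = 1.28e-05). Espl1 (separase), the protease that cuts cohesin, was at 19.3, 16.5, 21.3 and 19.4 CPM in controls and at 27.9, 28.0, 27.1 and 25.1 CPM in YAP5SA, 0.50 ± 0.09 (SE; edgeR adjusted p = 0.000145). Ube2c, the ubiquitin-conjugating enzyme of the anaphase-promoting complex, was at 72.1, 71.5, 81.2 and 61.4 CPM in controls and at 117, 115, 125 and 109.7 CPM in YAP5SA, 0.70 ± 0.07 (SE; edgeR adjusted p = 2.49e-07). None of these 3 overlapped between groups. Exons of Ube2c share 22.8% of their bases with exons of Tnnc2, and reads of the pair may not be told apart.

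Bub3, which docks the checkpoint proteins at kinetochores, had the smallest estimate of the 56. It was at 127, 121, 122 and 108 CPM in controls and at 124, 125, 124 and 118 CPM in YAP5SA, and control 1 was the highest of all 8 libraries. The log2 fold change was 0.03 ± 0.06 (SE), a ratio of 1.02 with a 95% interval of 0.944 to 1.11 (edgeR adjusted p = 0.635), so a rise of the median size of the group, 1.41-fold, lies outside the interval. Without control 4 the estimate was −0.00. Its partners in the checkpoint were both called. Bub1 was at 75.3, 77.1, 81.6 and 61.4 CPM in controls and at 105, 104, 105 and 96.9 CPM in YAP5SA, a log2 fold change of 0.47 ± 0.07 (SE; edgeR adjusted p = 3.28e-05). Bub1b was at 70.9, 70.9, 75.4 and 61.3 CPM in controls and at 89.3, 102, 106 and 91.0 CPM in YAP5SA, 0.48 ± 0.07 (SE; edgeR adjusted p = 2.48e-05). Neither overlapped between groups. The checkpoint kinase Ttk was at 0.60, Mad2l1, which captures the activator of the anaphase-promoting complex, at 0.50, and Cdc20, that activator, at 0.57.

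All 8 cytokinesis genes were higher, with a median of 0.50. Kif23 and Racgap1 together form centralspindlin, which organises the central spindle. Kif23 was at 97.9, 105, 99.4 and 88.8 CPM in controls and at 169, 151, 154 and 151 CPM in YAP5SA, a log2 fold change of 0.67 ± 0.06 (SE; edgeR adjusted p = 3.56e-08). Racgap1 was at 92.2, 86.8, 101 and 85.8 CPM in controls and at 148, 137, 146 and 146 CPM in YAP5SA, 0.66 ± 0.06 (SE; edgeR adjusted p = 4.47e-08). The partners were close to each other in level and in fold change, and neither overlapped between groups. Ect2, the exchange factor that centralspindlin recruits to activate RhoA, had the smallest estimate of the role, 0.23 ± 0.06 (SE; edgeR adjusted p = 0.00415). It was at 156, 165, 152 and 141 CPM in controls and at 195, 174, 168 and 182 CPM in YAP5SA, so the groups were separated by a narrow gap.

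Anln (anillin), the scaffold of the contractile ring, was at a log2 fold change of 0.57. The chromokinesin Kif4, the 1 X-linked gene of the group, was at 0.55, Kif14, a motor of the midbody, at 0.46, Kif20a, which carries passenger proteins to the central spindle, at 0.39, and Prc1, which bundles its microtubules, at 0.38. Exons of Kif20a share 29.3% of their bases with Cdc23 and those of Kif4 share 15.1% with Pdzd11. For Ncapg, Cdc25c, Ccna2 and Prc1 the share with a neighbouring gene was between 11.1% and 13.4%. No difference between roles was tested.

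**Figure D3:**
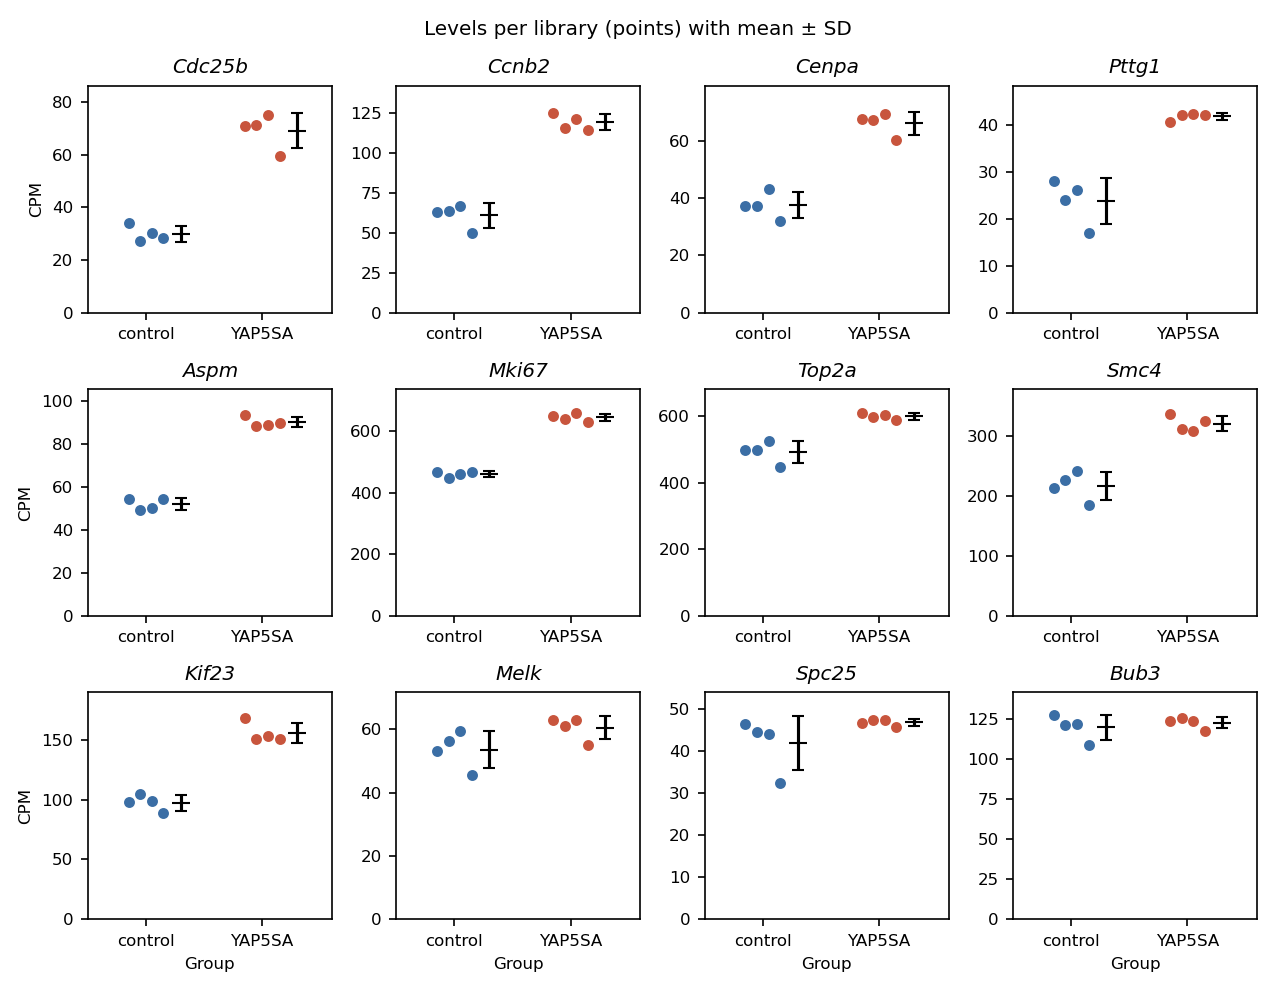
CPM of 12 mitosis genes in each library (points) with the mean and SD of each group (n = 4), each axis starting at 0. The groups are separate for Cdc25b, Ccnb2, Cenpa, Pttg1, Aspm, Mki67, Top2a, Smc4 and Kif23 and overlap for Melk, Spc25 and Bub3.

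Levels between genes were compared per kilobase of exon. In controls, Top2a was highest at 54.7 CPM per kb, followed by Cks2 (46.5), Mki67 (45.8), Cdc20 (41.7), Smc4 (41.5) and Ccnb2 (39.7). The lowest were Kif18a (1.97), Espl1 (2.19), Kif14 (2.71), Cdc25c (2.97) and Kif15 (3.27). In YAP5SA, Ccnb2 was highest at 77.8 CPM per kb, above Top2a (66.6), Cks2 (66.5) and Mki67 (64.2). Ccnb2 thus moved from sixth place to first. These orders are descriptions, since the lengths come from the union of annotated exons and not from the transcripts in these organoids.

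Partner genes were compared within each library, where the ratio of their counts does not depend on scaling. For 11 pairs the log2 ratio was compared between groups by an exact two-sided permutation test, whose smallest possible p is 0.0286. With adjustment over the pairs, 7 pairs would need that p for any to pass, and 0 of 11 passed. The groups did not overlap in 3 pairs, each with an exact p of 0.0286 and an adjusted p of 0.105. The ratio of Ccnb2 to Ccnb1 was 0.645, 0.612, 0.625 and 0.611 in controls and 0.879, 0.840, 0.866 and 0.855 in YAP5SA, so it was 1.38 times higher. The ratio of Smc4 to Smc2 was 1.43, 1.61, 1.68 and 1.36 in controls and 2.04, 2.01, 1.97 and 2.0 in YAP5SA, 1.33 times higher. Both ratios were narrow in YAP5SA.

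The ratio of Pttg1 to Espl1 was 1.45, 1.45, 1.22 and 0.876 in controls and 1.46, 1.5, 1.57 and 1.68 in YAP5SA, 1.27 times higher. Its groups nearly touched, and without control 4 the difference of the log2 ratios was 0.18 in place of 0.34. For Kif23 and Racgap1 the ratio was 1.01 times that of controls, and for Bub1b and Bub1 0.999 times. Both ranges overlapped, as did those of the other 6 pairs. Reads of partners could be compared because each member had at least 156 counts in every library.

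**Figure D4:**
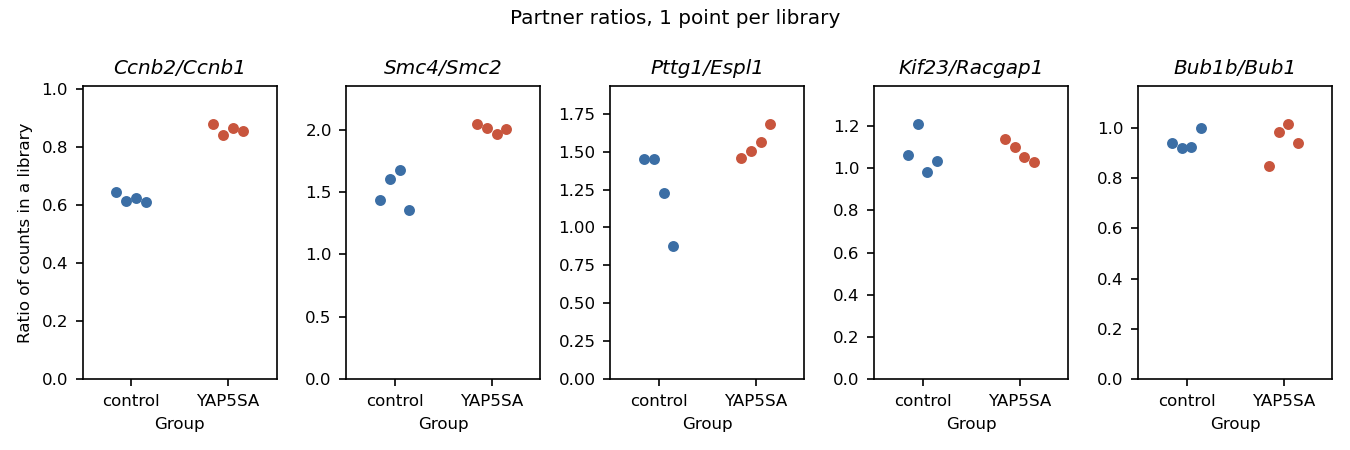
Ratio of counts of 5 partner pairs in each library, with 1 point per library and each axis starting at 0. The groups are separate for Ccnb2 to Ccnb1 and Smc4 to Smc2, nearly touch for Pttg1 to Espl1, and overlap for Kif23 to Racgap1 and Bub1b to Bub1.

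Other genes of the cell cycle gave the setting. Of 127 further mitosis genes, 74 (58.3%) were higher, 8 (6.30%) lower and 45 not called, against 23.6% higher and 25.5% lower over all tested genes. At least 1.5-fold higher were 14, against 9.7% of all tested genes, and the median log2 fold change was 0.26. Cdkn3, a phosphatase that acts on CDKs, had the highest, 0.92 ± 0.11 (SE), from 13.6 ± 2.2 to 26.0 ± 2.9 CPM (SD, n = 4 each), and Sgo2a, a shugoshin that protects centromeric cohesin, 0.91 ± 0.08 (SE), from 19.5 ± 0.9 to 36.7 ± 2.8 CPM. The lowest were Nedd1, which brings gamma-tubulin to the centrosome, at −0.47 ± 0.06 (SE), and Cdc25a, the third CDC25 phosphatase, which acts in S phase as well, at −0.46 ± 0.08 (SE). Cdc25a went from 46.9 ± 3.9 to 34.1 ± 3.2 CPM (SD, n = 4 each), so it fell while Cdc25b and Cdc25c rose. Gtse1, Kif2a and Zwint, named after their values were seen, were also lower. Of 50 DNA replication genes, 29 (58%) were higher, 2 (4%) lower and 19 not called, with a median of 0.22. Cdt1, which licenses origins, and Tk1, thymidine kinase, were highest, both at 0.61, and Pold3, a polymerase delta subunit, at −0.88 and Ccne1, a cyclin of S phase entry, at −0.32 were lower.

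Of 22 regulators (MuvB, DREAM, MYB, E2F and NF-Y genes), 9 were higher, 2 lower and 11 not called, with a median of 0.15. The share called in either direction was about that over all tested genes, 49.1%. By direction, 40.9% were higher and 9.09% lower, against 23.6% and 25.5% of all tested genes. Mybl1 (A-MYB) was highest at 0.83 ± 0.09 (SE), from 20.5 ± 2.4 to 36.5 ± 2.6 CPM (SD, n = 4 each), and E2f1 followed at 0.68. Mybl2 (B-MYB), the MYB factor that joins MuvB in dividing cells, was lower, at −0.28 ± 0.08 (SE; edgeR adjusted p = 0.00681), from 29.7 ± 0.7 to 24.5 ± 2.0 CPM, as was Tfdp2, a partner of E2F, at −0.51. CDK inhibitors went both ways, with 4 of 7 higher (57.1%) and 2 lower (28.6%). Cdkn2c and Cdkn2d, of the INK4 family, rose by 0.95 and 0.83, while Cdkn2b of the same family had a log2 fold change of −0.96 and Cdkn1a (p21) of −0.92. Cdkn1a went from 297.2 ± 12.8 to 157.1 ± 11.3 CPM (SD, n = 4 each). No difference between lists was tested.

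**Figure D5:**
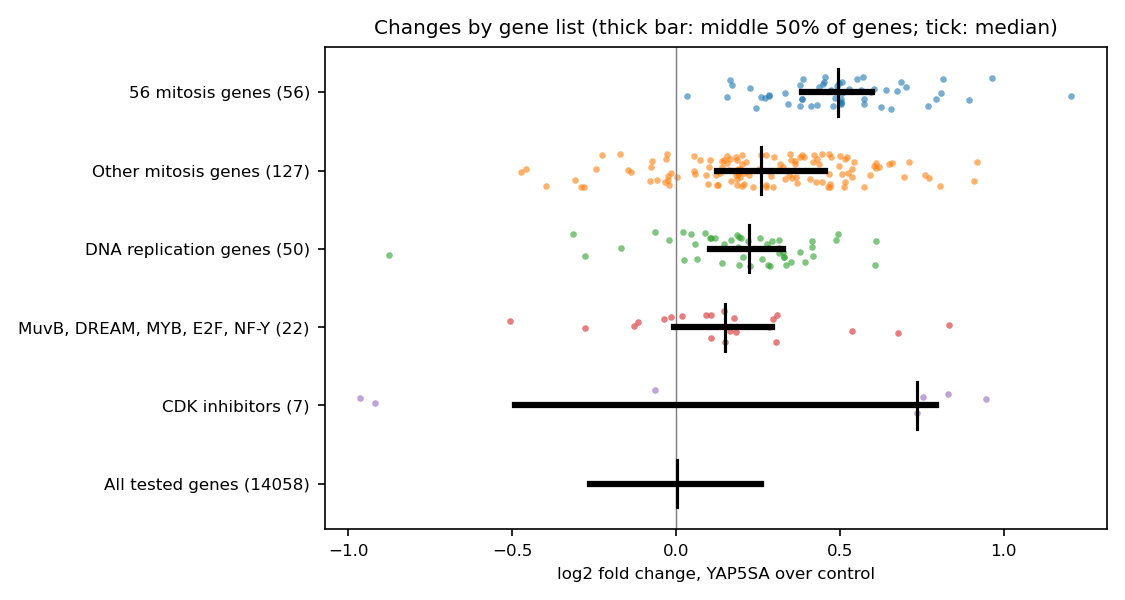
Log2 fold changes, YAP5SA over control, of the 56 mitosis genes and of the other cell cycle lists, with 1 point per gene, a tick at the median and a thick bar over the middle 50% of genes; all tested genes are shown by tick and bar alone. The median is 0.49 for the 56 genes, 0.26 for other mitosis genes, 0.22 for DNA replication genes and 0.15 for MuvB, DREAM, MYB, E2F and NF-Y genes.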

How the data were processed

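RNA was sequenced from 8 libraries, 4 control and 4 YAP5SA. The deposited table holds unnormalized read counts, whole numbers for each gene. The submitters' processing notes name cutadapt, HISAT2 2.0.1, HTSeq 0.6.1 and the build mm9. Which annotation was used, and whether strand was, is not given in the sources used here, so reads of overlapping genes may not be told apart, and exon overlaps and lengths were taken from GENCODE M21.

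The 2639 rows without a gene name (0.190% to 0.221% of counts) were left out, and 959 rows sharing symbols were summed. Genes were kept by filterByExpr (minimum count 10, minimum total 15), scaled by TMM and fitted with edgeR 4.0.16 under R 4.3.3 (glmQLFit, robust, and glmQLFTest), genotype being the only term, with Benjamini-Hochberg adjustment over all tested genes and calls at an adjusted p under 0.05. SE is the log2 fold change over the square root of F. The common biological coefficient of variation was 7.97%. Of the 48 members with a promoter, 3 had several, and the first listed was used. Ratios of partner genes were compared by exact permutation. Both tests were also run on simulated counts, and the outcome is not given here. The simulated pairs all had the same baseline count and spread, unlike the members, and were scored by unadjusted p. Alternatives were other scalings, no filter, DESeq2 1.42.0, a replicate block, other thresholds and leaving out each library. No 2 libraries of the same group agreed within sampling noise.

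The members and the gene lists were chosen with earlier results of these data known. Values by library are given for Mki67, Top2a, the 2 genes with the largest and the 1 with the smallest change in each role, members not called, and partners described, and for Kif18a, chosen after its values were seen; of other lists, the 2 highest and 2 lowest called genes are named, with group means or fold changes.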

Additional observations from a re-analysis of the deposited data

Results flagged for a closer look

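In 7 of the 112 groups of 4 libraries examined (56 genes in 2 groups), 1 library stood apart from the other 3 by Dixon's ratio, which chance alone flags in about 1 of 20 groups, or 5.6 here. Control 4 was that library in 5 of the 7. It was the low library for Nek2 (48.2 CPM, nearest other control 58.3), Kif11 (90.5 CPM, nearest 103), Nusap1 (49.2 CPM, nearest 65.0), Hmmr (102.7 CPM, nearest 135) and Prc1 (90.2 CPM, nearest 100.4). Control 2 was low for Ncapd2 (70.8 CPM, nearest 81.1). YAP5SA 1 was low for Pttg1 (40.7 CPM, nearest 42.1), where the 4 YAP5SA values are within a narrow range.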

How the results depend on the processing

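The count of mitosis genes higher in YAP5SA was between 50 and 54 under other scalings, no filter, the DESeq2 Wald test, a replicate block and an adjusted p under 0.01, with 0 lower in each. Leaving out 1 library gave 51 to 54 higher and 0 lower, 2959 to 3595 genes of all tested higher, 3412 to 3722 lower, and a median log2 fold change of the mitosis genes of 0.42 to 0.52. Requiring a 1.5-fold change left 15 mitosis genes higher, 1363 of all tested genes higher and 1800 lower. Library size alone gave 3635 of all genes higher and 3282 lower and moved their median by 0.03. With only the bases before the start site, TTTGAA stood in 37.5% of the promoters, either CHR in 50%, and CCAAT with either CHR in 43.8%, against 16.3%, 25.5% and 9.0% of all promoters. Melk passed under library size alone (adjusted p 0.0448), no filter (0.0298) and without control 3 (0.0352), and Kif18a was lost under upper-quartile normalization (edgeR adjusted p = 0.0501). At 0.01, Smc2, Kif18a and Nuf2 were lost. No pair of partners passed with a pseudocount of 0.5. Same-numbered libraries did not deviate together (correlations from −0.08 to 0.09, 2 of 4 controls closest to their own number), and with a replicate block 54 mitosis genes were higher, Melk included (edgeR adjusted p = 0.0443), with 3192 of all genes higher and 3394 lower. The causes of these shifts were not tested. Without control 4, the log2 fold changes that were not called were 0.11 for Melk, 0.06 for Spc25 and −0.00 for Bub3.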

Other observations

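With control 4 included, the mitosis genes varied more between the controls than between the YAP5SA libraries. The median coefficient of variation over the 56 genes was 9.25% in controls and 4.59% in YAP5SA, and it was higher in controls for 49 of them. Over the 8221 tested genes whose average log2 CPM reached 4, the medians were 7.35% and 5.18%, and 5661 were more variable in controls. Without control 4, an alternative chosen after seeing the data, the medians in controls were 4.24% for the 56 genes and 5.17% for the other set. The median of the 56 genes was then below that of YAP5SA, and 27 of them were more variable in controls. Leaving out the lowest control of most genes lowers the spread by construction, and no YAP5SA library was left out beside it.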
